A study of Saccharomyces cerevisiae with 6 samples.

Results

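The genes described here encode enzymes and a carrier of amino acid synthesis in budding yeast that the transcription factor Gcn4 controls, together with GCN4 itself. They were chosen by name, from the arginine, histidine, lysine, isoleucine-valine, aromatic, threonine, serine and asparagine branches. Of the 41 genes named, 40 had a probe set annotated to them among the 5449 genes on the array, and each of the 40 had 1 probe set. ARG5,6, of the arginine branch, was not analysed here.

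The cells were Saccharomyces cerevisiae in which SSE1 had been deleted, in both groups. Sse1 is an Hsp110 protein that helps cytosolic Hsp70 release its nucleotide, and the study used its loss as a sensitised background for protein overproduction. In 1 group the deletion strain carried an empty plasmid, and in the other it carried the yEVenus multi-copy plasmid, which makes a yellow fluorescent protein that yeast does not have. Each group had 3 arrays, from separate colonies grown in SC-MSG medium without leucine to exponential phase. The labels give neither the promoter that drives yEVenus nor the other marker genes of the strain, and no probe set used here measures yEVenus.

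Gcn4 is a basic leucine zipper activator that binds upstream of most genes for amino acid synthesis. When an amino acid is short, the kinase Gcn2 phosphorylates the initiation factor eIF2, and short upstream reading frames in the GCN4 transcript then let more Gcn4 protein be made. Gcn4 is controlled mainly at translation and by rapid degradation, so its transcript level, which is what an array reads, is not a measure of the protein.

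Levels are log2 RMA values per array, and differences are yEVenus plasmid minus empty plasmid on the log2 scale. RMA quantile normalizes the arrays before probes are summarised, so a difference is roughly relative to the bulk of transcripts. The summarised values were not fully equal between arrays. "Rose" and "fell" are used for genes with an adjusted p under 0.05 in limma, a linear model fitted over all 5449 genes with Benjamini-Hochberg adjustment. The deleted gene read 3.17, 3.24 and 3.02 on the empty-plasmid arrays and 3.09, 3.18 and 3.23 on the yEVenus arrays. The medians of 17 control probe sets for artificial tag sequences were 3.01 to 3.24 per array, so SSE1 was at background in both groups. The members lay far above it, between 8.85 and 13.13 over all arrays. Array medians were 9.12 to 9.13 with the empty plasmid and 9.06 to 9.08 with yEVenus. The yEVenus arrays were thus slightly lower at their medians, the same direction as most members.

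Most of the synthesis genes were lower with the yEVenus plasmid, by small amounts. Of the 40 genes, 27 fell, 4 rose and 9 did not pass the test, with a median difference of -0.24. Over all genes, 41% fell and 29.3% rose, with a median of -0.07. The differences ran from -0.98 for SER3 to 0.58 for ORT1, and 34 of the 40 were below 0. The values of the groups did not overlap for 35 of the 40 genes, counted in either direction, against 74.9% of all genes. Of all genes, 43.4% did not overlap with yEVenus lower. The 35 cannot be read against that share, since they include genes that were higher, such as ORT1. The median absolute difference was 0.27 for these genes and 0.30 for all genes. Under median centring, 21 of the 40 genes fell and 6 rose, and over all genes 1858 fell and 1846 rose.

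**Figure D1:**
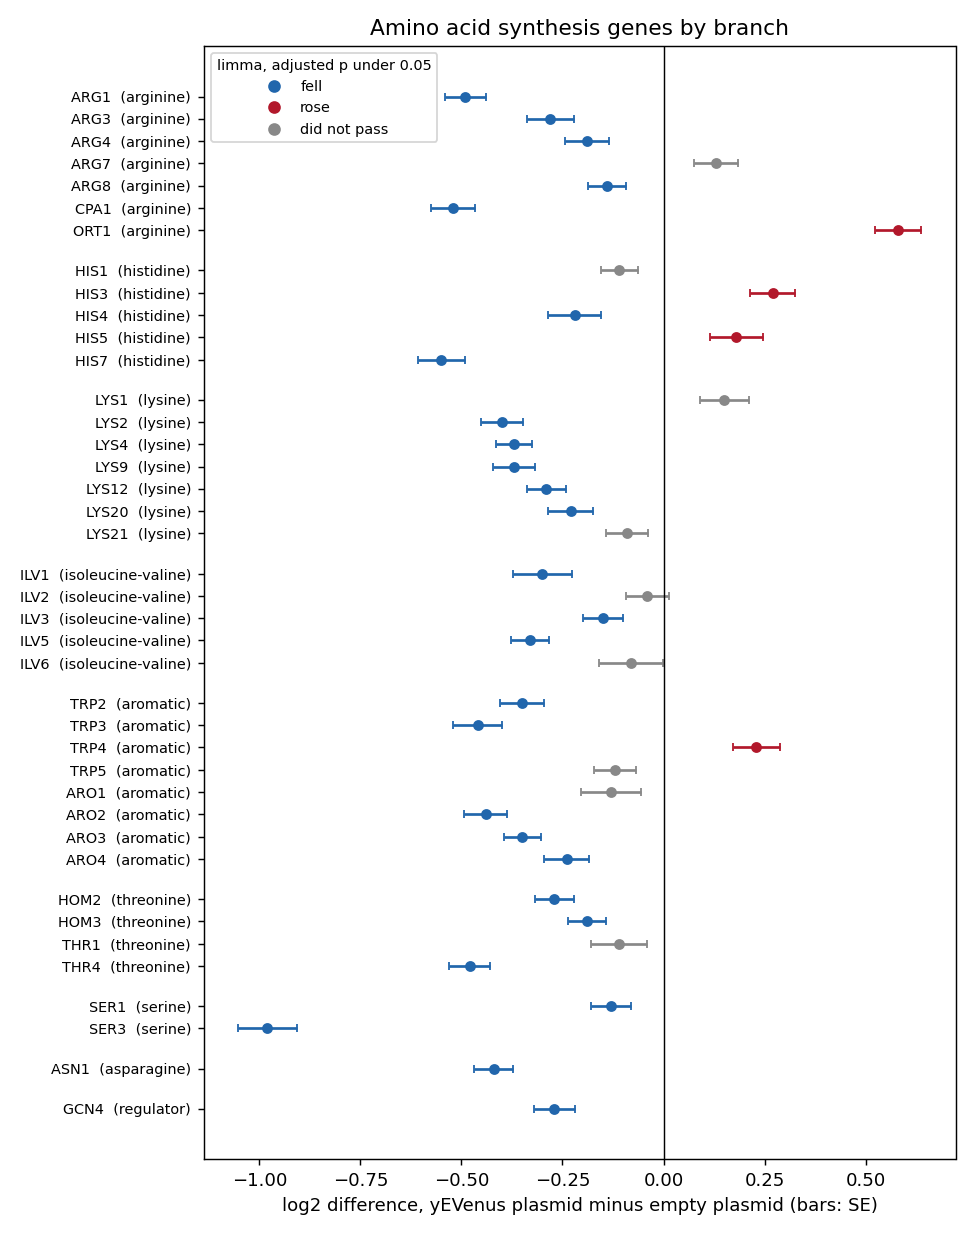
Log2 difference between the yEVenus and empty plasmid groups (x axis, bars are the SE from limma, 3 arrays per group) for the 40 measured genes, grouped by branch on the y axis. SER3 lies at -0.98, most other genes lie between 0 and -0.55, and ORT1, HIS3, TRP4 and HIS5 are the 4 genes that rose.

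Coding length moved with the result. On these arrays long genes tended to be lower and short genes higher with yEVenus, and 7 control genes with probe sets at both ends had a larger 3' minus 5' gap in that group. The gap was 1.83 ± 0.0294 on the empty-plasmid arrays and 2.48 ± 0.067 on the yEVenus arrays (SD, n = 3 each). The synthesis genes have a median coding length of 1279.5 nt. Between 1201 and 1500 nt, 8 of 10 synthesis genes fell, where 54.6% of the 698 genes of that length fell. Between 1501 and 2100 nt, 8 of 9 fell, where 50.2% of 1008 genes did. From 901 to 1200 nt, 8 of 13 fell against 40.8% of 873 genes, and 2 rose, against 29.2%. Above 2100 nt it was 2 of 4 against 62.1% (6.2% of genes of that length rose), and up to 900 nt 1 of 4 against 17.6%.

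**Figure D2:**
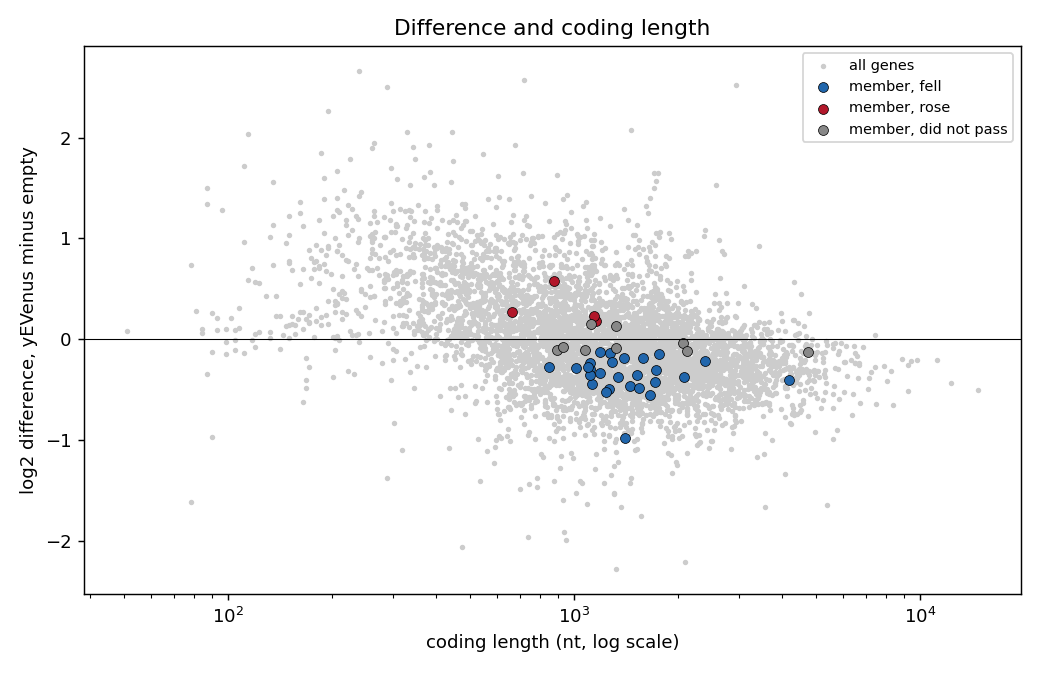
Log2 difference (y axis, yEVenus minus empty plasmid) against coding length in nt (x axis, log scale) for all 5449 genes in grey and the 40 synthesis genes in colour, by call. The cloud of all genes slopes downward, and between 1201 and 2100 nt nearly all synthesis genes sit below 0.

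With the length trend removed from each array, 20 of the 40 genes fell and 6 rose, with a median of -0.13, where 35.8% of all genes fell and 29.4% rose and the median was -0.04. Of the 27 falls, 19 were called again in that fit, and HIS1 was added. Genes of chromosomes I and II were lower as groups, with medians of -0.44 and -0.32 against -0.12 to 0.02 on the other 14 chromosomes. No synthesis gene is on chromosome I, and HIS7, LYS2 and ARO4 are on chromosome II, where 60.5% of genes fell and 18.3% rose. With the length trend removed and each chromosome centred on its own median, 17 of the 40 fell and 7 rose, with a median of -0.07, against 32.0% and 32.5% of all genes. Calls that these fits end, add or turn are given below with each member.

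**Figure D3:**
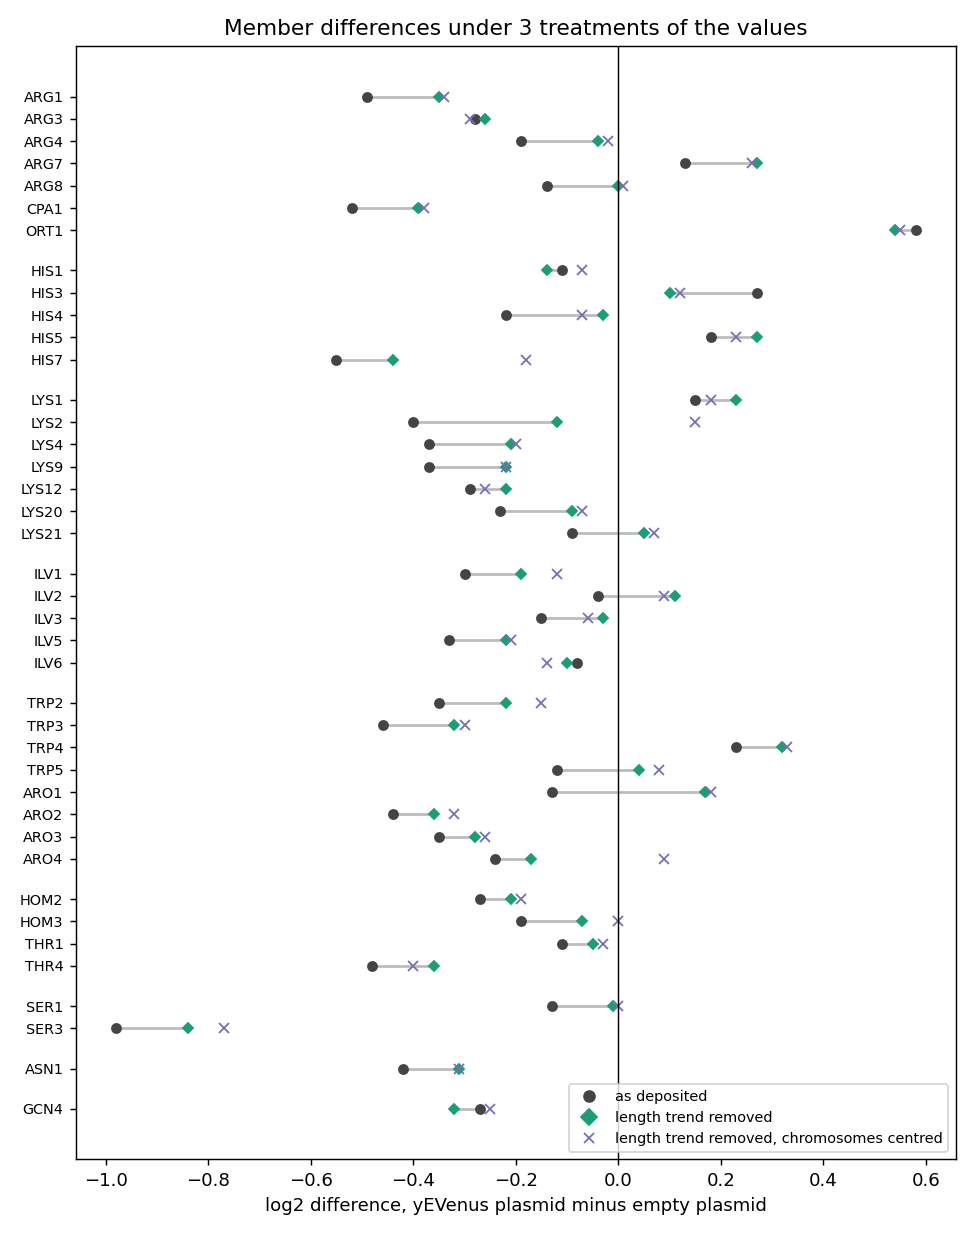
Log2 difference of each gene (x axis) as deposited, with the length trend removed, and with the length trend removed and chromosomes centred. SER3, ASN1, GCN4, CPA1, ARG1, ARG3, THR4, TRP3, ARO2, ARO3 and ORT1 keep their side of 0 by 0.25 or more, while LYS2 goes from -0.40 to 0.15 and ARO4 from -0.24 to 0.09.

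GCN4 (YEL009C, chromosome V) itself was lower with the yEVenus plasmid. Its level was 13.10, 13.06 and 13.13 with the empty plasmid and 12.87, 12.78 and 12.83 with yEVenus. All 3 yEVenus arrays lay below all 3 empty-plasmid arrays. The difference was -0.27 ± 0.0498 (SE; limma, adjusted p = 0.00168). GCN4 is a short gene of 846 nt, a length at which 55.6% of genes rose, and its difference was -0.32 with the length trend removed (adjusted p = 0.000642). With chromosomes centred it was -0.19 (adjusted p = 0.00941). With length and chromosome both taken into account it was -0.25 (adjusted p = 0.00196).

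The serine branch held the largest change. SER3 (YER081W) encodes 3-phosphoglycerate dehydrogenase, the first enzyme of the route from glycolysis to serine. It read 10.73, 10.76 and 10.91 with the empty plasmid and 9.72, 9.83 and 9.92 with yEVenus. The groups lay far apart compared with the spread within them, and the level fell 1.97-fold, a difference of -0.98 ± 0.073 (SE; limma, adjusted p = 2.33e-05). SER3 was the only member that fell by 1.5-fold or more. The difference was -0.77 with length and chromosome both taken into account. SER1 (YOR184W), the transaminase of the next step, had a difference of -0.13 (adjusted p = 0.0464), and this call was lost in every fit that left out 1 array. Length trend removal took SER1 to -0.01.

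The paralogue of SER3 did not pass the test. SER33 (YIL074C), which encodes the same activity and is not a member, read 9.70, 9.76 and 9.63 with the empty plasmid and 9.76, 9.69 and 9.70 with yEVenus. Its groups overlapped. The SER3 signal minus the SER33 signal within an array was 1.03, 1.01 and 1.28 with the empty plasmid and -0.05, 0.15 and 0.22 with yEVenus, a change of -1.0; only the change is read, since signals of different probe sets are not on one scale. An exact two-sided permutation test gave p = 0.1, the smallest that 3 arrays against 3 allow, and 0.125 after adjustment over 5 pairs. SER2, the phosphatase of the last step, rose by 0.22 (limma, adjusted p = 0.0116); it was singled out after its values were seen. SER33 was at 0.16 with the length trend removed (adjusted p = 0.0157), on the other side of 0 from SER3.

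ASN1 (YPR145W), one of a pair of asparagine synthetase genes, read 12.69, 12.68 and 12.75 with the empty plasmid and 12.26, 12.27 and 12.32 with yEVenus. The groups did not overlap, and the difference was -0.42 ± 0.0487 (SE; limma, adjusted p = 0.000159), or -0.31 with length and chromosome taken into account. Its paralogue ASN2 (YGR124W), not a member, went the same way. It read 11.73, 11.75 and 11.73 with the empty plasmid and 11.44, 11.33 and 11.36 with yEVenus, a difference of -0.35. The within-array difference between ASN1 and ASN2 changed by -0.07, and its groups overlapped (exact permutation p = 0.4).

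The counts by branch that follow stand beside 41% of all genes that fell and 29.3% that rose, and the branches are too small for their shares to be read against these. In the arginine branch, 1 gene rose and 5 fell among the 7 measured, and the median difference was -0.19. Arginine is made from ornithine, which is produced in mitochondria, exported by a carrier and then converted in the cytosol. The genes of carbamoyl phosphate and of the cytosolic steps were lower. CPA1 (YOR303W), the small subunit of the arginine-specific carbamoyl phosphate synthetase, read 12.70, 12.70 and 12.71 with the empty plasmid and 12.26, 12.17 and 12.11 with yEVenus. The empty-plasmid arrays were nearly equal, and every yEVenus array was lower. The difference was -0.52 ± 0.0544 (SE; limma, adjusted p = 9.51e-05). ARG1 (YOL058W), argininosuccinate synthetase, fell by 0.49 (adjusted p = 0.000101). ARG3 (YJL088W), ornithine carbamoyltransferase, fell by 0.28 (adjusted p = 0.00301). ARG4 (YHR018C), argininosuccinate lyase, was at -0.19 (adjusted p = 0.0164). CPA1, ARG1 and ARG3 were called again with the length trend removed, at -0.39, -0.35 and -0.26, and ARG4 was not, at -0.04. ARG4 was also not called when array 2 of either group was left out (adjusted p = 0.0528 for the empty plasmid and 0.0626 for yEVenus).

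The genes of the mitochondrial steps and of the carrier differed among themselves. ORT1 (YOR130C), the mitochondrial carrier that exports ornithine, read 8.95, 8.85 and 8.97 with the empty plasmid and 9.53, 9.55 and 9.43 with yEVenus. All yEVenus arrays were higher, and ORT1 rose by 49.5%, a difference of 0.58 ± 0.0578 (SE; limma, adjusted p = 7.85e-05). It was 0.54 once the length trend was removed. ARG7 (YMR062C), ornithine acetyltransferase, read 10.75 to 10.85 with the empty plasmid and 10.86 to 10.98 with yEVenus. The groups just failed to meet, and the difference of 0.13 did not pass (adjusted p = 0.065); it was 0.27 and passed with the length trend removed (adjusted p = 0.00206). ARG8 (YOL140W), acetylornithine aminotransferase, was at -0.14 (adjusted p = 0.0308) and at 0.00 with the length trend removed. ARG8 lost its call in 4 of the 6 fits that left out 1 array, which were the fit lacking array 1 of the empty plasmid and those lacking any yEVenus array.

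**Figure D4:**
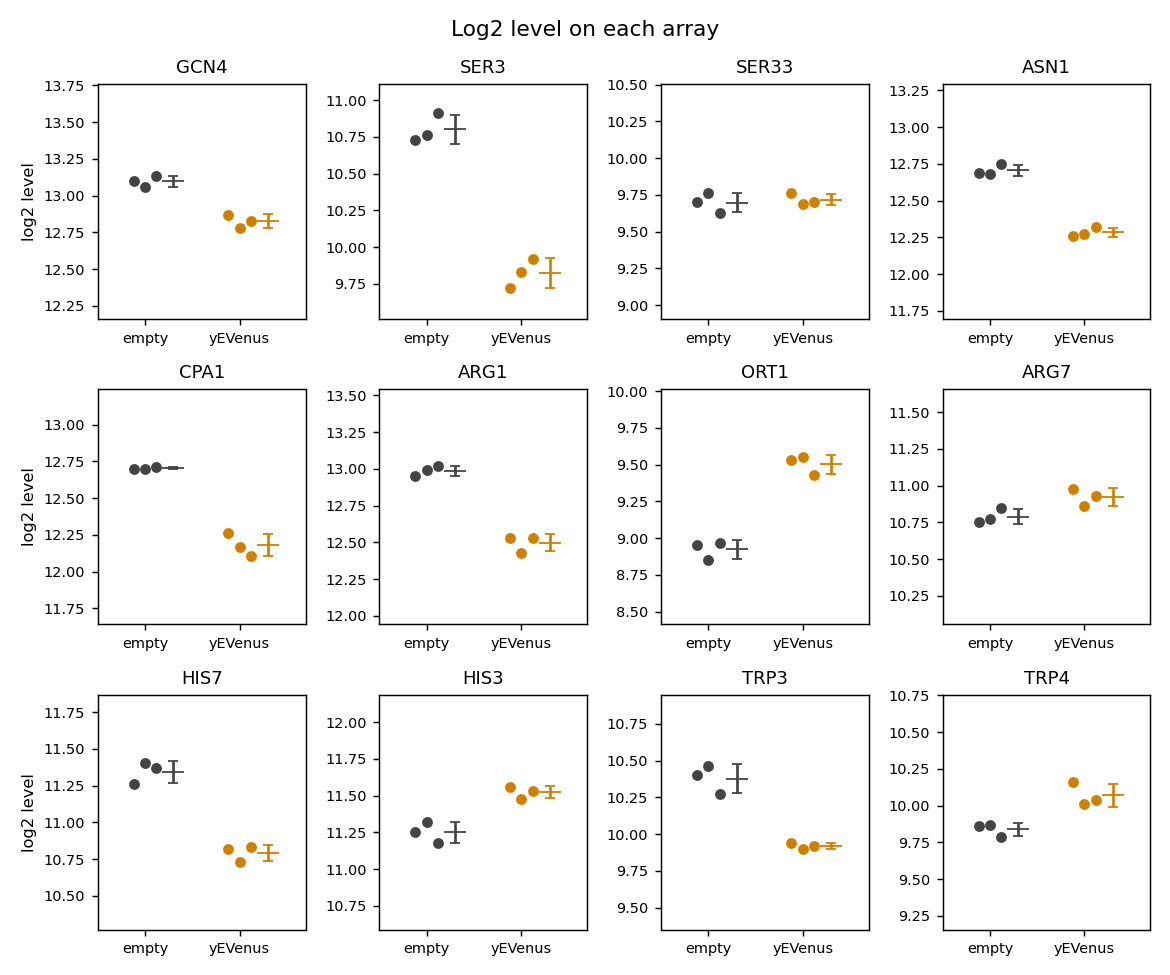
Log2 level on each array (points, 3 per group) with the group mean and SD beside them for 12 genes; each panel spans the same range on the y axis around that gene's own mean. SER3 and CPA1 drop with no overlap, SER33 does not separate, and ORT1, HIS3 and TRP4 are higher on every yEVenus array.

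The histidine branch was split, with 2 falls, 2 rises and a median of -0.11 over 5 genes. HIS7 (YBR248C), imidazole glycerol phosphate synthase, read 11.26, 11.40 and 11.37 with the empty plasmid and 10.82, 10.73 and 10.83 with yEVenus. The groups were well separated, and the difference was -0.55 ± 0.0577 (SE; limma, adjusted p = 9.85e-05). HIS7 lies on chromosome II, and with the chromosomes centred its difference was -0.26 (adjusted p = 0.0059). HIS4 (YCL030C), an enzyme of several steps, was at -0.22 (adjusted p = 0.0167) and at -0.03 with the length trend removed. HIS4 was not called either when empty-plasmid array 3, yEVenus array 1 or yEVenus array 2 was left out.

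The next steps of histidine synthesis were higher. HIS3 (YOR202W), the dehydratase that acts on the product of His7, read 11.25, 11.32 and 11.18 with the empty plasmid and 11.56, 11.48 and 11.53 with yEVenus. No array of one group reached the other, and HIS3 rose by 0.27 ± 0.055 (SE; limma, adjusted p = 0.00283). It is the shortest member, at 663 nt, and was at 0.10 with the length trend removed, which did not pass (adjusted p = 0.139). HIS5 (YIL116W), the aminotransferase after it, read 10.27, 10.09 and 10.06 with the empty plasmid and 10.34, 10.32 and 10.28 with yEVenus. Empty-plasmid replicate 1 came close to the yEVenus arrays, and the difference of 0.18 had an adjusted p of 0.0412. HIS5 lost its call without empty-plasmid replicate 2 or 3 or any yEVenus array, and was at 0.27 with the length trend removed (adjusted p = 0.00547). HIS1 (YER055C), the phosphoribosyltransferase that opens the branch, was at -0.11 with an interval of -0.21 to 0.00 and did not pass (adjusted p = 0.068). It fell with the length trend removed, at -0.14 (adjusted p = 0.0205). It did not pass with chromosomes centred, at -0.02 (adjusted p = 0.648), or with length and chromosome both taken into account, at -0.07 (adjusted p = 0.169).

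In the lysine branch, 5 of 7 genes fell, while LYS1 and LYS21 did not pass, and the median was -0.29. Yeast makes lysine from 2-oxoglutarate through aminoadipate. LYS2 (YBR115C), the aminoadipate reductase, read 12.17, 12.19 and 12.16 with the empty plasmid and 11.71, 11.79 and 11.83 with yEVenus. The groups were apart, with a difference of -0.40 ± 0.0523 (SE; limma, adjusted p = 0.000298). LYS2 is long (4179 nt) and lies on chromosome II. Its difference was -0.12 with the length trend removed, -0.10 with chromosomes centred and 0.15 with both (adjusted p = 0.0635, 0.138 and 0.0235), so its direction turned with the treatment of length and chromosome.

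Genes of other lysine steps were lower in every one of the fits for length and chromosome. LYS4 (YDR234W), homoaconitase, LYS12 (YIL094C), homoisocitrate dehydrogenase, and LYS9 (YNR050C), the glutamate-forming saccharopine dehydrogenase, were at -0.37, -0.29 and -0.37. With length and chromosome both taken into account they were at -0.20, -0.26 and -0.22, and each was still called. LYS1 (YIR034C), the last enzyme, went the other way, with 11.24 to 11.35 in the empty-plasmid group and 11.39 to 11.55 with yEVenus. Its groups did not overlap, but the difference of 0.15 did not pass (adjusted p = 0.0527). It passed without yEVenus replicate 3 (adjusted p = 0.0458) and with the length trend removed, at 0.23 (adjusted p = 0.00517).

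LYS20 and LYS21 encode the homocitrate synthases that open the lysine branch. LYS20 (YDL182W) read 12.72, 12.83 and 12.87 with the empty plasmid and 12.62, 12.54 and 12.57 with yEVenus, a difference of -0.23 (limma, adjusted p = 0.00708). LYS21 (YDL131W) read 11.55, 11.54 and 11.48 against 11.50, 11.39 and 11.42, with a difference of -0.09 (interval -0.21 to 0.03, adjusted p = 0.159). The LYS20 groups were separate and the LYS21 groups overlapped. The within-array difference between the pair changed by -0.14, and the values of the groups did not overlap. The exact permutation p was 0.1 (adjusted over 5 pairs, 0.125), the smallest this design allows, so the test could not pass at any size of difference. LYS20 was at -0.09 with the length trend removed and did not pass.

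In the isoleucine-valine branch, 3 of 5 genes fell, while ILV2 and ILV6 did not pass, and the median was -0.15. ILV5 (YLR355C), acetohydroxyacid reductoisomerase, read 13.00, 13.04 and 13.00 with the empty plasmid and 12.67, 12.67 and 12.71 with yEVenus. Both groups were tight and did not overlap, with a difference of -0.33 ± 0.0464 (SE; limma, adjusted p = 0.000411). ILV1 (YER086W), threonine deaminase, was at -0.30 and ILV3 (YJR016C), dihydroxyacid dehydratase, at -0.15 (adjusted p = 0.00651 and 0.0306). ILV1 was at -0.12 and not called with length and chromosome both taken into account (adjusted p = 0.128). ILV3 was at -0.03 and not called with the length trend removed (adjusted p = 0.548). ILV3 also lost its call under cyclic loess (adjusted p = 0.0625) and in 4 of the 6 fits that left out 1 array, which lacked array 2 or 3 of the empty plasmid, or array 1 or 2 of yEVenus.

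Neither subunit of acetolactate synthase passed the test. ILV2 (YMR108W), the catalytic subunit, was at -0.04 (interval -0.16 to 0.08), and at 0.03 under median centring. ILV6 (YCL009C), the regulatory subunit, was at -0.08 (interval -0.26 to 0.10). Empty-plasmid replicate 1 read 12.09 for ILV6 where the other arrays of that group read 12.37 and 12.32, and without it ILV6 fell by 0.17 (adjusted p = 0.0324). The transaminase genes of the last step, BAT1 and BAT2, are not members. BAT1 (YHR208W), the mitochondrial form, read 12.18, 12.23 and 12.23 with the empty plasmid and 12.28, 12.23 and 12.17 with yEVenus. BAT2 (YJR148W), the cytosolic form, read 10.70, 10.76 and 10.82 against 10.76, 10.59 and 10.62. The groups overlapped for each gene, while the within-array difference of the pair did not overlap between the groups and changed by 0.12 (exact permutation p = 0.1, adjusted 0.125).

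In the aromatic branch, 5 of 8 genes fell and 1 rose, with a median of -0.30. ARO3 and ARO4 encode the DAHP synthases that open the shikimate pathway, inhibited by phenylalanine and by tyrosine. ARO3 (YDR035W) read 11.41, 11.43 and 11.38 with the empty plasmid and 11.03, 11.07 and 11.07 with yEVenus, a difference of -0.35 (limma, adjusted p = 0.000298). ARO4 (YBR249C) read 12.22, 12.21 and 12.09 against 11.98, 11.90 and 11.92, a difference of -0.24 (adjusted p = 0.00495). Both were separated between the groups, and the within-array difference of the pair changed by -0.10 (exact permutation p = 0.1, adjusted 0.125). ARO4 lies beside HIS7 on chromosome II, and with chromosomes centred it was at 0.05 and did not pass (adjusted p = 0.391), while ARO3, on chromosome IV, was at -0.28.

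ARO2 (YGL148W), chorismate synthase, was lower as well, at -0.44 (adjusted p = 0.000189). ARO1 (YDR127W), the long gene of 4767 nt for the enzyme of the middle shikimate steps, was at -0.13 and its groups overlapped. It did not pass as deposited (adjusted p = 0.159), passed at -0.19 without empty-plasmid replicate 1 (adjusted p = 0.0469), and was at 0.17 with the length trend removed (adjusted p = 0.0211). No direction is therefore given for ARO1.

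The tryptophan genes differed by step. TRP3 (YKL211C), which carries the glutamine amidotransferase of anthranilate synthase and indole glycerol phosphate synthase, read 10.40, 10.46 and 10.27 with the empty plasmid and 9.94, 9.90 and 9.92 with yEVenus. The groups were clearly apart, with a difference of -0.46 ± 0.0601 (SE; limma, adjusted p = 0.000299). TRP2 (YER090W), the other subunit of anthranilate synthase, was at -0.35 (adjusted p = 0.000771), and both were called with length and chromosome taken into account. TRP4 (YDR354W), the phosphoribosyltransferase of the next step, read 9.86, 9.87 and 9.79 with the empty plasmid and 10.16, 10.01 and 10.04 with yEVenus. All yEVenus arrays were higher, and TRP4 rose by 0.23 ± 0.0574 (SE; limma, adjusted p = 0.0079), or by 0.32 with the length trend removed. TRP5 (YGL026C), tryptophan synthase, was at -0.12 (interval -0.23 to 0.00, adjusted p = 0.0722).

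In the threonine branch, 3 of 4 genes fell, while THR1 did not pass, and the median was -0.23. THR4 (YCR053W), threonine synthase, the last step, read 12.12, 12.14 and 12.12 with the empty plasmid and 11.71, 11.63 and 11.60 with yEVenus. The empty-plasmid arrays were nearly equal and the groups lay apart, with a difference of -0.48 ± 0.0507 (SE; limma, adjusted p = 0.000105). HOM2 (YDR158W), aspartate semialdehyde dehydrogenase, was at -0.27 (adjusted p = 0.00132) and HOM3 (YER052C), aspartate kinase, at -0.19 (adjusted p = 0.00673). HOM3 was at -0.07 with the length trend removed and did not pass. THR1 (YHR025W), homoserine kinase, was at -0.11 with overlapping groups (interval -0.27 to 0.05). HOM6, the homoserine dehydrogenase between them, is not a member; it read 12.95 to 12.99 with the empty plasmid and 13.22 to 13.23 with yEVenus. HOM6 thus rose by 0.25 (limma, adjusted p = 0.00141), opposite to HOM2, HOM3 and THR4 of the same route.

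Set side by side, every branch with more than 1 member had a median below 0, from -0.11 for histidine to -0.55 for the 2 serine genes. Each array's branch median was taken relative to the empty-plasmid mean of each gene. On the yEVenus arrays it was -0.09, -0.12 and -0.11 for histidine and -0.24, -0.34 and -0.29 for lysine. For the aromatic branch it was -0.28, -0.31 and -0.26, and for serine -0.59, -0.57 and -0.50. The empty-plasmid arrays stayed between -0.04 and 0.05 in all 7 branches, and no branch overlapped. They lie near 0 because each gene was set to its own empty-plasmid mean. The groups also did not overlap for 74.9% of all single genes, and the median difference over all genes was -0.07. The lack of overlap therefore does not set the branches apart from other genes. The branch medians describe branches of 2 to 8 genes, and no test of one branch against another was made. The order depended on the fit: the histidine median was 0.03 without chromosomes I and II, and the aromatic median was -0.04 with length and chromosome both taken into account. Removal of the length trend gave -0.42 for serine, -0.20 for aromatic, -0.14 for threonine, -0.12 for lysine, -0.10 for isoleucine-valine, -0.04 for arginine and -0.03 for histidine.

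**Figure D5:**
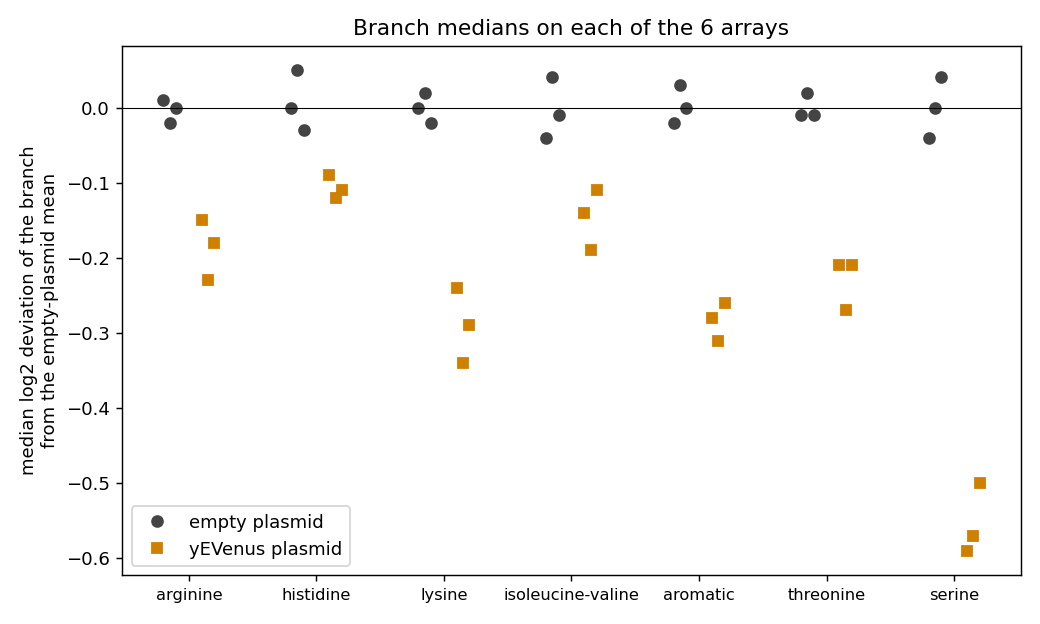
Median log2 deviation of the members of each branch from the empty-plasmid mean (y axis) on each of the 6 arrays, for the 7 branches with 2 or more measured genes (x axis). The yEVenus arrays lie below the empty-plasmid arrays in each branch, closest in histidine and farthest in serine.

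The larger changes can be told from the smaller ones by a test against a minimum change of 1.2-fold. In that test 8 members fell, namely SER3, HIS7, CPA1, ARG1, THR4, TRP3, ARO2 and ASN1, and 1 rose, ORT1. Over all genes 16.6% fell and 15.5% rose in the same test. The 8 falls among 40 genes were close to that background, while the 1 rise was below it. The difference in shares was not tested. In all, 22 of the 27 falls and 3 of the 4 rises were called in each of the 6 fits that left out 1 array. The matching share over all genes was not counted, so this is not read as a trait of the members.

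Other genes of these branches, which are not members, were found in both directions. Among 16 with a probe set there were 5 falls and 4 rises, and the median was -0.05. These shares were not above those of all genes, of which 41% fell and 29.3% rose. LYS5, whose product activates Lys2 by adding phosphopantetheine, rose by 0.88 (limma, adjusted p = 5.17e-05), or by 0.82 with the length trend removed (819 nt). HIS6, an isomerase of histidine synthesis, rose by 0.35, or by 0.27 with the length trend removed (786 nt). HOM6 and SER2, described above, were the other rises. ARO7, chorismate mutase, fell by 0.62 and ARO9, an aromatic aminotransferase also used in breakdown, fell by 0.68; ASN2 is given above.

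Of 16 genes that act on Gcn4 or its translation, 10 fell and 3 rose, with a median of -0.17 and a median coding length of 1626 nt, where 41% of all genes fell and 29.3% rose. The falls with the smallest p were in subunits of eIF2 and of its exchange factor eIF2B. SUI3 (eIF2 beta) was at -0.45, GCD11 (eIF2 gamma) at -0.51 and GCD1 (eIF2B gamma) at -0.49. GCN3, the regulatory eIF2B subunit, rose by 0.43, and SSN3, a Mediator kinase that marks Gcn4 for degradation, rose by 0.16 (limma, adjusted p = 0.0242). The SSN3 call was lost in at least 1 fit that left out 1 array (largest limma adjusted p = 0.0767). PCL5, a cyclin that directs the kinase Pho85 to Gcn4 and is itself a Gcn4 target, read 9.73, 9.37 and 9.66 with the empty plasmid and 10.28, 10.58 and 10.36 with yEVenus. PCL5 thus rose by 0.82 ± 0.112 (SE, limma, adjusted p = 0.000348), with no overlap, while GCN4 fell. The PCL5 difference was 0.68 with the length trend removed (690 nt). With the length trend removed, 6 of the 16 fell and 5 rose, against 35.8% and 29.4% of all genes.

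Among 20 genes of linked synthesis routes and their regulators there were 11 falls and 3 rises, and the median was -0.17, against shares of 41% and 29.3% and a median of -0.07 over all genes. GLN1, glutamine synthetase, fell by 0.61, and SHM1, a mitochondrial serine hydroxymethyltransferase gene on chromosome II, fell by 0.64. SHM1 was at -0.35 with chromosomes centred and at -0.25 with length and chromosome both taken into account. MCM1, a MADS-box factor of arginine regulation among other roles, fell by 0.77. Its partner ARG80 rose by 0.64, or by 0.33 with the length trend removed (534 nt). SNZ1 and SNO1, a divergent gene pair of vitamin B6 synthesis, rose by 1.04 and 1.93. SNO1 read 6.53, 6.52 and 6.17 with the empty plasmid and 8.38, 8.32 and 8.32 with yEVenus, a change far outside the spread (limma, adjusted p = 5.5e-06) and opposite to most of the amino acid synthesis genes.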

How the data were processed

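Total RNA from 6 cultures, each from a separate colony, was labelled as biotin cRNA and hybridised to Affymetrix yeast arrays, per the labels' protocols. The authors deposited log2 values made by RMA in R 3.2.0, per the submitters' processing notes; RMA corrects background, quantile normalizes and summarises probes into probe sets. Of 5900 probe sets, 5498 were annotated to 1 gene, and the probe set with the highest mean was kept for each of 5449 genes. Differences were fitted with limma 3.58.1 (lmFit and eBayes, R 4.3.3, 4 residual degrees of freedom), and p-values were adjusted by Benjamini-Hochberg over all 5449 genes, with a threshold of 0.05. Intervals are 95% and unadjusted. The length trend was removed per array as a loess curve (span 0.5) on coding length. Paralogue pairs were compared by exact two-sided permutation. The number of arrays limits the precision. The members and lists were chosen with earlier results of these data known. Every member is named, with all 6 values for GCN4, for the largest fall and rise of each branch, for every rise and for 5 paralogue pairs; of other lists, up to 3 genes with the smallest p per direction. Promoter and protein sequences were not used here. Replicate numbers did not pair the samples: deviations of same-numbered arrays correlated at 0.193, -0.129 and 0.196.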

Additional observations from a re-analysis of the deposited data

How the results depend on the processing

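Over 21 alternatives, 714 of the members' values kept direction and call, 87 (22 members) lost the call, 22 (6 members) gained it and 14 (7 members) turned direction. The 714 include 40 from testing every probe set and 40 from the mean of probe sets. Each member has 1 probe set, so these could alter only its adjusted p and say little about robustness. The threshold of 0.01, the test against 1.2-fold and eBayes with a trended, robust prior could not change a direction either. Nor could the replicate block, since each replicate number occurs once in each group. Leaving out the dimmest 25% of genes, or chromosomes I and II, did not alter the difference of any member that stayed in. Values kept under these settings therefore bear on calls and not on direction. Counts of members that fell and rose were 24 and 6 under cyclic loess, 21 and 6 under median centring, and 24 and 6 under quantile normalization. Over all genes these counts were 1897 and 1787, 1858 and 1846, and 2108 and 1667. At a threshold of 0.01 they were 22 and 3 for members, and 1780 and 1300 over all genes. With length and chromosome both removed they were 17 and 7 for members, and 1742 and 1771 over all genes. Against a change of 1.2-fold they were 8 and 1, and 907 and 846 over all genes. The replicate number as a block gave 25 and 5 members and 2224 and 1603 genes, although the numbers do not pair the samples. Leaving out 1 array gave 22 to 27 falls and 3 to 4 rises among the members. Over all genes the same fits gave 1939 to 2195 falls and 1420 to 1614 rises. The arginine median was then -0.22 to -0.16.

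Directions turned for ILV2 under median centring (0.03). With the length trend removed ARG8 was 0.00, LYS21 0.05, ILV2 0.11, TRP5 0.04 and ARO1 0.17. With chromosomes centred ARO4 was 0.05. With both, ARG8 was 0.01, LYS2 0.15, LYS21 0.07, ILV2 0.09, TRP5 0.08, ARO1 0.18 and ARO4 0.09. Leaving out 1 array gave BAT1 -0.01 to 0.04 and SER33 -0.01 to 0.05.

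Branch medians for arginine, histidine, lysine, isoleucine-valine, aromatic, threonine and serine were -0.12, -0.04, -0.22, -0.08, -0.23, -0.16 and -0.48 under median centring. With the length trend removed they were -0.04, -0.03, -0.12, -0.10, -0.20, -0.14 and -0.42. Cyclic loess moved arginine to -0.14, aromatic to -0.25, threonine to -0.20 and serine to -0.49, and quantile normalization moved aromatic to -0.27. Chromosome centring gave arginine -0.13, histidine -0.02, lysine -0.16, aromatic -0.16, threonine -0.16 and serine -0.49. Both together gave arginine -0.02, histidine -0.07, lysine -0.07, aromatic -0.04, threonine -0.11 and serine -0.38. Without chromosomes I and II histidine was 0.03 and aromatic -0.35. The cause of these shifts was not tested. The alternative with protein length was not run.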
